A study of Mus musculus with 3 samples.

Results

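The 39 genes described here encode the DNA replication machinery and its S phase supply. They were taken by name as the rows of the deposited count table for a list of gene symbols, 39 of 50507 rows, and each of them was found. The cells were primary mouse embryonic fibroblasts (MEFs) of wild-type BL6 mice, transduced with a tet-inducible STEMCCA lentivirus carrying Oct4, Sox2, Klf4 and c-Myc (OSKM) together with an rtTA virus. Adding 2 ug/mL doxycycline in reprogramming medium with chiron, an Alk5 inhibitor, ascorbic acid and LIF started reprogramming at day 0 (Day00 to Day06). In the siRNA arm the transduced cells were first reverse transfected with 40 nM pooled siRNA and collected at day 6. Its controls were a non-targeting siRNA (nt) and Mock-transfected wells. Time course cells carried the same viruses but were never transfected, only re-plated. Each condition was 1 barcoded bulk library in each of 3 sequencing pools, 1 pool per replicate, except Mock with 2 libraries in each pool, and the condition of a library is known from its column name. No source used here says that replicates came from separate embryos, so p-values measure the spread between these libraries.

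Before S phase, CDC6 and CDT1 load the MCM helicase onto origins, and geminin (Gmnn) blocks CDT1 from doing so again. CDC45 and the GINS complex then switch the helicase on, primase and polymerase alpha start new strands, the RFC complex loads the PCNA clamp for the replicative polymerases, and FEN1 and LIG1 finish the lagging strand. Ribonucleotide reductase, thymidylate synthase, thymidine kinase and dUTPase supply or clean up the nucleotides, UHRF1 brings DNMT1 to newly copied DNA, and many of these genes are E2F targets switched on at the border of G1 and S. Fibroblasts cycle slowly and pluripotent cells fast.

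Of 129 libraries with counts, 127 were kept by the study, with 29656 to 235292 UMI counts each (median 73279). The 39 genes together gave 50 to 397 counts per library, median 146, a counting error of 8.28% at the median. Levels below are CPM, counts per 1000000 of the TMM-scaled library size. Singly the genes were sparse, from 46 counts over all libraries for Pold1 to 3602 for Dut, and 13 of the 39 passed the edgeR filter for low counts (Mcm2, Mcm6, Mcm7, Gmnn, Pcna, Rfc1, Rfc2, Rfc4, Pola1, Rrm1, Dut, Uhrf1 and Dnmt1). A second fit kept every gene with at least 10 counts, 16129 genes with all 39 among them. Summed fibroblast markers lay between 13790 and 16710 CPM at Day00 and between 4103 and 5297 at Day06, while summed macrophage markers stayed at or below 246 CPM and endothelial markers at or below 56.1 CPM in the time course. Of 31 siRNA targets with a test, 23 had a log2 fold change below 0 in their own libraries and none was lower at an adjusted or unadjusted p under 0.05 in edgeR. Most targets were sparse, with 0 counts of Bard1 under siBard1 against 2 in nt, 0 of Pou5f1 against 4, 4 of Brca1 against 2 and 7 of Wdr5 against 9. Among those with more counts, Hat1 had 106 against 71 (log2 fold change 0.09), Eny2 35 against 32 (-0.041) and Hdac1 18 against 23 (0.38). Set had 58 against 151 (-0.48), Apex1 30 against 59 (-0.56), Prmt5 17 against 28 (-0.53) and Ncor1 12 against 22 (-0.54). Kmt2e had 15 against 18 (-0.064) and Bptf 11 against 20 (-0.13). Ep300 had 17 against 3 (1.93, unadjusted p = 0.0213, adjusted p = 0.541, edgeR). An siRNA below names the transfected pool. The RT-qPCR checks of knockdown that the study ran on an earlier day, for Brca1, Bard1 and Wdr5, were not analysed here.

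The summed level of the 39 genes was higher 1 day after induction, lowest at day 3 and high again at day 4. At Day00 the 3 libraries held 1683, 1906 and 1664 CPM. At Day01 they held 2544, 3054 and 2733 CPM, so every Day01 library was above every Day00 library. Day02 libraries were spread over 1531, 2246 and 1331 CPM. Day03 libraries held 1032, 1265 and 924 CPM, the 3 lowest of all 127 libraries, with the lowest other library at 1331 CPM. At Day04 the values were 2859, 2622 and 2460 CPM, at Day05 2157, 2283 and 1868 CPM, and at Day06 3027, 3073 and 2243 CPM. Expressed as ratios of means, Day01 was 1.59 times Day00, Day03 was 0.613 times Day00, Day04 was 2.47 times Day03 and Day06 was 1.59 times Day00. Within replicates the Day04 to Day03 ratio was between 2.07 and 2.77, and the Day03 to Day00 ratio between 0.555 and 0.664. This sum is a description and carries no test. In bulk libraries, fewer cells in S phase and less of these mRNAs per cell cannot be told apart.

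**Figure D1:**
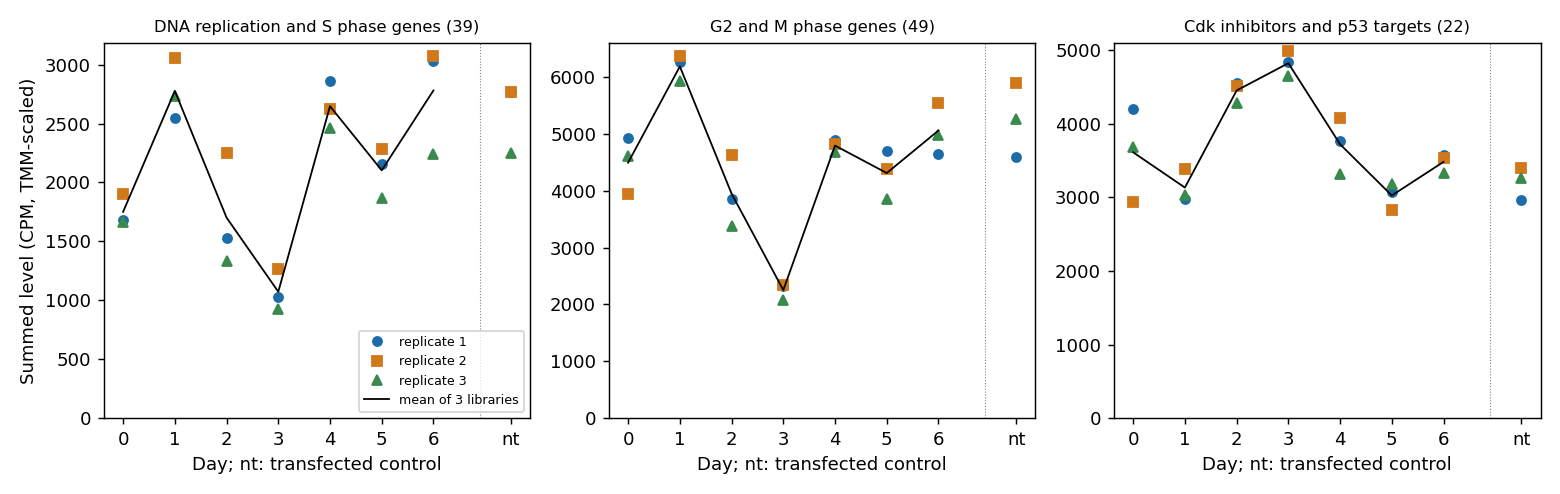
Summed level in CPM (TMM-scaled) of 3 gene lists against day of reprogramming, with the transfected nt control at the right. Points are single libraries by replicate and the line joins the means of 3 libraries. The replication genes and the G2 and M phase genes are lowest at day 3, where the replication genes sit between 924 and 1265 CPM, and the list of Cdk inhibitors and p53 targets is highest there.

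Other quantities moved over the same days. The share of counts from mitochondrially encoded genes was 13.8% to 15.7% at Day00, 10.8% to 12.5% at Day01, 19.7% to 22.6% at Day03 and 19.9% to 20.8% at Day04. The 10 housekeeping genes summed to between 12090 and 12620 CPM at Day00, 6068 and 6598 CPM at Day03, and 6407 and 7562 CPM at Day04. From day 0 to day 3 the mitochondrial share was higher and the housekeeping sum lower, and between day 3 and day 4 the ranges of both overlapped. The part of either in the level of the replication genes was not tested for any of these steps. With only nuclear-encoded counts as the total, the log2 ratio of summed levels was 1.40 for Day04 against Day03 and -0.72 for Day03 against Day00.

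The movement was spread over many of the 39 genes. In the fit with at least 10 counts, the median log2 fold change of Day01 against Day00 over the 39 genes was 0.85, beside 0.02 over all genes, and 32 of the 39 were positive. For Day03 against Day00 the median was -0.67, beside 0.00, with 6 of 39 positive. For Day04 against Day03 it was 1.52, beside 0.03, with 37 of 39 positive. Counting ranges that did not overlap, 22 of the 39 genes had all 3 Day04 libraries above all 3 Day03 libraries and none had them all below. The share of all genes so separated was 5.85% upwards and 5.29% downwards, and upwards it was 8.47% among the 10637 genes with at least as many counts as Pold1. At Day01, 10 genes lay wholly above Day00, where 4.21% of all genes did. At Day03, 8 genes lay wholly below Day00, where 5.29% of all genes did: Cdc45, Dnmt1, Lig1, Mcm7, Pcna, Prim1, Rrm2 and Tyms. Day04 lay wholly above Day00 for 11 genes beside 6.40% of all genes, and Day06 for 8 beside 5.61%, with Rrm2 the single gene wholly below at Day06, beside 6.92%. Among genes with at least as many counts as Pold1, these shares against Day00 were 6.25%, 7.57%, 9.26%, 8.39% and 9.93%, in the same order.

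**Figure D2:**
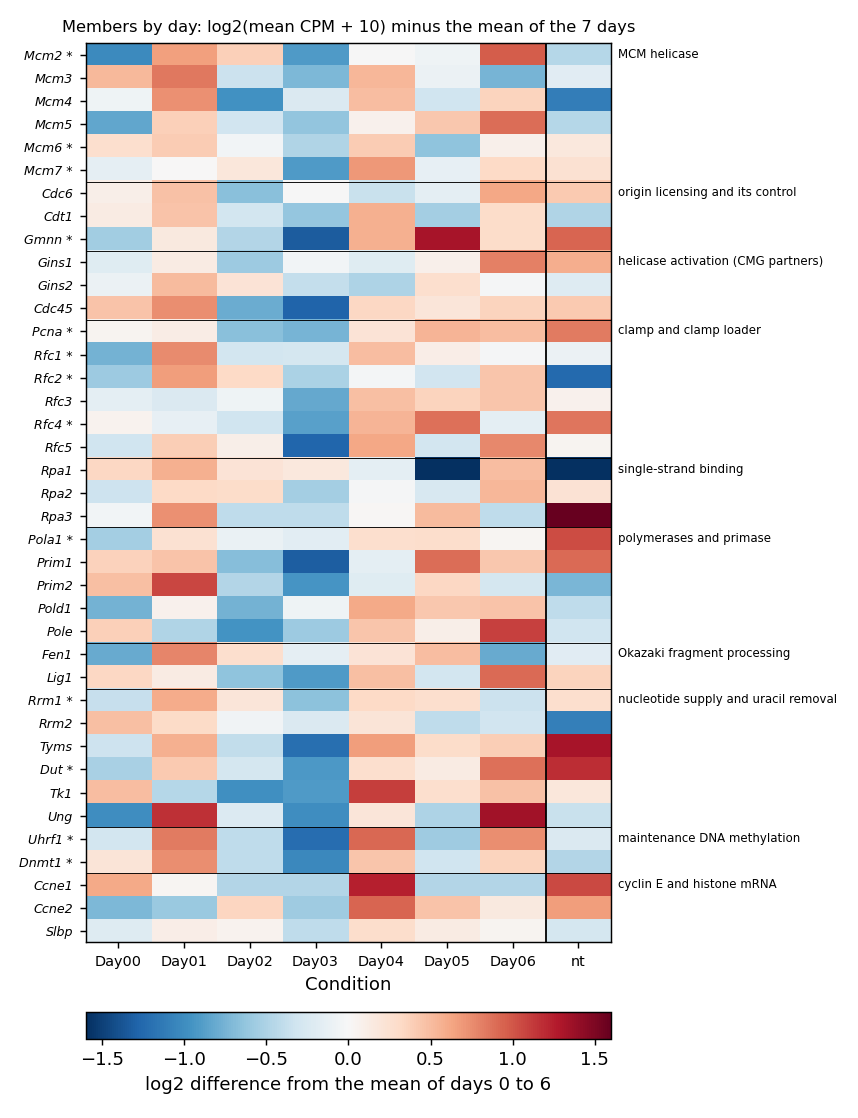
Each row is 1 of the 39 genes, grouped by role, and each column a condition. Colour gives log2(mean CPM + 10) minus the gene's mean over days 0 to 6, and asterisks mark the 13 genes that passed the main filter. Most rows are blue at day 3 and red at day 1 and day 4, with Gmnn highest at day 5 and the nt column differing from day 6 in both directions.

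The MCM helicase genes summed to 349, 402 and 331 CPM at Day00 and 605, 607 and 414 CPM at Day04, against 227, 253 and 211 CPM at Day03. Mcm2 (GRCm38 chromosome 6, 88883474 to 88898780), a helicase subunit, held 41.1, 21.2 and 41.4 CPM at Day00, 91.7, 134 and 171 CPM at Day01, and 193, 163 and 143 CPM at Day06. Both later days lay wholly above Day00. Mcm2 rose by a log2 fold change of 1.88 ± 0.55 (SE) at Day01 (adjusted p = 0.0128, edgeR quasi-likelihood test with Benjamini-Hochberg adjustment) and by 2.07 ± 0.53 at Day06 (adjusted p = 0.00113). Beside these, 3.09% of tested genes were called higher at Day01 and 10.7% at Day06. In between, Mcm2 held 85.7, 137 and 100 CPM at Day02, 52.5, 36.1 and 26.4 CPM at Day03, 78.5, 81 and 79.8 CPM at Day04 and 50.7, 79.6 and 96.6 CPM at Day05, so its Day03 libraries overlapped Day00 and its Day04 libraries were all above Day03. The Day01 call was lost without replicate 2, without replicate 3 and with the filter of 10 counts (adjusted p 0.00386 to 0.238 over 10 alternatives), and the Day06 call was kept in all 10. Mcm2 did not pass the count filter in the fit of Day00 and Day06 libraries alone, so that alternative gave no value.

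Mcm7 (chromosome 5, 138164583 to 138172422), another subunit of the ring, held 17.5, 54.2 and 70.4 CPM at Day03 and 202, 152 and 138 CPM at Day04. The groups did not overlap, and Mcm7 rose by a log2 fold change of 1.53 ± 0.49 (adjusted p = 0.0209, edgeR), a call lost in 5 of 11 alternatives. On the other days its values were 82.1, 106 and 74.5 CPM at Day00, 0, 134 and 159 CPM at Day01, 73.5, 152 and 109 CPM at Day02, 101, 133 and 32.2 CPM at Day05 and 178, 90.4 and 102 CPM at Day06. Its exons overlap Mir25 and Mir93 on the same strand and those of Ap4m1 and Cops6 on the other, and Gm5487 shares at least 25% of the 31-base words in the last 400 bases of its transcripts, so its counts are less certain. Mcm6 (chromosome 1, 128331590 to 128359664) was never called over time. It held 123, 254 and 74.5 CPM at Day00, 206, 110 and 182 CPM at Day01, 73.5, 182 and 100 CPM at Day02 and 87.4, 108 and 61.6 CPM at Day03. From there it went to 191, 243 and 65.3 CPM at Day04, 88.8, 92.9 and 45.1 CPM at Day05 and 178, 127 and 88.6 CPM at Day06, ranges that overlapped between every pair of neighbouring days.

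Among the licensing genes, Gmnn (chromosome 13, 24751845 to 24761923), the inhibitor of CDT1, was highest at Day05. Its values were 0, 42.3 and 24.8 CPM at Day00, 22.9, 48.9 and 56.9 CPM at Day01, 24.5, 30.3 and 18.2 CPM at Day02 and 0, 18.1 and 8.8 CPM at Day03. It then held 89.7, 40.5 and 50.8 CPM at Day04, 76.1, 159 and 90.2 CPM at Day05 and 29.7, 54.2 and 61.4 CPM at Day06. All Day04 and Day05 libraries were above all Day03 libraries, and all Day05 libraries above all Day00 libraries. Gmnn rose by 2.52 ± 0.83 on the log2 scale from Day03 to Day04 (adjusted p = 0.0265, edgeR; lost in 4 of 10 alternatives) and by 2.11 ± 0.62 from Day00 to Day05 (adjusted p = 0.00459), where 16.8% of tested genes were called higher. Cdc6 and Cdt1, the loaders themselves, gave 57 and 216 counts over all libraries and were not called in the fit that held them.

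The clamp and its loader went from 370, 318 and 348 CPM at Day00 through 157, 307 and 229 CPM at Day03 to 549, 476 and 581 CPM at Day04. Pcna (chromosome 2, 132249162 to 132253314), the sliding clamp, held 185, 212 and 132 CPM at Day00, 160, 208 and 194 CPM at Day01, 122, 60.7 and 128 CPM at Day02 and 52.5, 126 and 114 CPM at Day03. It held 168, 202 and 232 CPM at Day04, 203, 292 and 264 CPM at Day05 and 326, 181 and 232 CPM at Day06. Its Day04 libraries were all above Day03, a log2 fold change of 1.02 ± 0.37 that missed the threshold (adjusted p = 0.0501, edgeR). Rfc4 (chromosome 16, 23113943 to 23127737), a loader subunit whose exons overlap Eif4a2 on the opposite strand, held 61.6, 0 and 49.7 CPM at Day00, 22.9, 48.9 and 22.8 CPM at Day01, 24.5, 45.5 and 9.12 CPM at Day02 and 17.5, 18.1 and 8.8 CPM at Day03. It held 56.1, 60.7 and 50.8 CPM at Day04, 63.4, 92.9 and 64.4 CPM at Day05 and 14.8, 36.1 and 40.9 CPM at Day06. Its Day04 libraries again lay wholly above Day03, with a log2 fold change of 1.91 ± 0.77 (adjusted p = 0.0914, edgeR).

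Genes of nucleotide supply summed to 452, 424 and 447 CPM at Day00, 367, 325 and 185 CPM at Day03 and 830, 668 and 639 CPM at Day04. Dut (chromosome 2, 125247190 to 125258608), the dUTPase that keeps uracil out of DNA, gave 17.5% of all counts of the 39 genes. It held 226, 169 and 190 CPM at Day00, 344, 513 and 285 CPM at Day01, 171, 349 and 173 CPM at Day02 and 157, 235 and 44 CPM at Day03. It held 426, 334 and 268 CPM at Day04, 317, 358 and 258 CPM at Day05 and 534, 723 and 334 CPM at Day06. Day01, Day04, Day05 and Day06 lay wholly above Day00. Dut rose by 0.91 ± 0.30 on the log2 scale at Day01 (adjusted p = 0.0302, edgeR; lost in 6 of 11 alternatives), by 1.28 ± 0.28 at Day06 (adjusted p = 0.000104; kept in all 11) and by 1.41 ± 0.31 from Day03 to Day04 (adjusted p = 0.000403; lost without replicate 3, whose Day03 library was the lowest, with adjusted p up to 0.114).

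Rrm1 (chromosome 7, 102441695 to 102469771), the large subunit of ribonucleotide reductase, did not pass the test in any time comparison. It held 82.1, 127 and 108 CPM at Day00, 229, 244 and 171 CPM at Day01, 159, 243 and 82.1 CPM at Day02 and 140, 18.1 and 96.8 CPM at Day03. It held 179, 152 and 196 CPM at Day04, 165, 226 and 122 CPM at Day05 and 134, 108 and 81.8 CPM at Day06. Day01 lay wholly above Day00 (log2 fold change 0.99 ± 0.42, adjusted p = 0.129, edgeR), and Day06 overlapped Day00. Rrm2, the small subunit, was the gene whose Day06 libraries (44.5, 54.2 and 34.1 CPM) were all below Day00 (61.6, 106 and 82.8 CPM).

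The maintenance methylation pair summed to 185, 254 and 149 CPM at Day00, 206, 489 and 353 CPM at Day01, 87.4, 90.3 and 61.6 CPM at Day03 and 269, 364 and 326 CPM at Day04. Uhrf1 (chromosome 17, 56303321 to 56323486) held 61.6, 84.7 and 49.7 CPM at Day00, 91.7, 257 and 114 CPM at Day01, 12.2, 121 and 45.6 CPM at Day02 and 17.5, 54.2 and 17.6 CPM at Day03. It held 168, 192 and 131 CPM at Day04, 50.7, 79.6 and 25.8 CPM at Day05 and 119, 181 and 136 CPM at Day06. Neighbouring days were separated from day 3 on, and Uhrf1 was the single gene of the 13 called in 4 of the 5 day-to-day steps after day 1. Uhrf1 fell by 1.50 ± 0.49 on the log2 scale from Day01 to Day02 (adjusted p = 0.0485, edgeR), rose by 2.45 ± 0.55 from Day03 to Day04 (adjusted p = 0.000527), fell by 1.72 ± 0.45 to Day05 (adjusted p = 0.00941) and rose by 1.63 ± 0.48 to Day06 (adjusted p = 0.0158). Only the Day03 to Day04 rise was kept in all 11 alternatives, the other 3 in 4 of 10, 4 of 11 and 4 of 10. Against Day00, Day04 was higher by 1.28 ± 0.47 (adjusted p = 0.0408, edgeR), kept in 3 of 11 alternatives.

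Dnmt1 (chromosome 9, 20907209 to 20959888), the methyltransferase itself, held 123, 169 and 99.3 CPM at Day00, 115, 232 and 239 CPM at Day01, 85.7, 152 and 9.12 CPM at Day02 and 69.9, 36.1 and 44 CPM at Day03. It held 101, 172 and 196 CPM at Day04, 140, 53.1 and 70.9 CPM at Day05 and 178, 199 and 61.4 CPM at Day06. Its Day03 libraries were all below Day00 and all below Day04. Dnmt1 fell by 1.52 ± 0.46 on the log2 scale from Day01 to Day02 (adjusted p = 0.0302, edgeR; kept in 6 of 11 alternatives) and rose by 1.66 ± 0.51 from Day03 to Day04 (adjusted p = 0.0157; kept in 5 of 10).

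**Figure D3:**
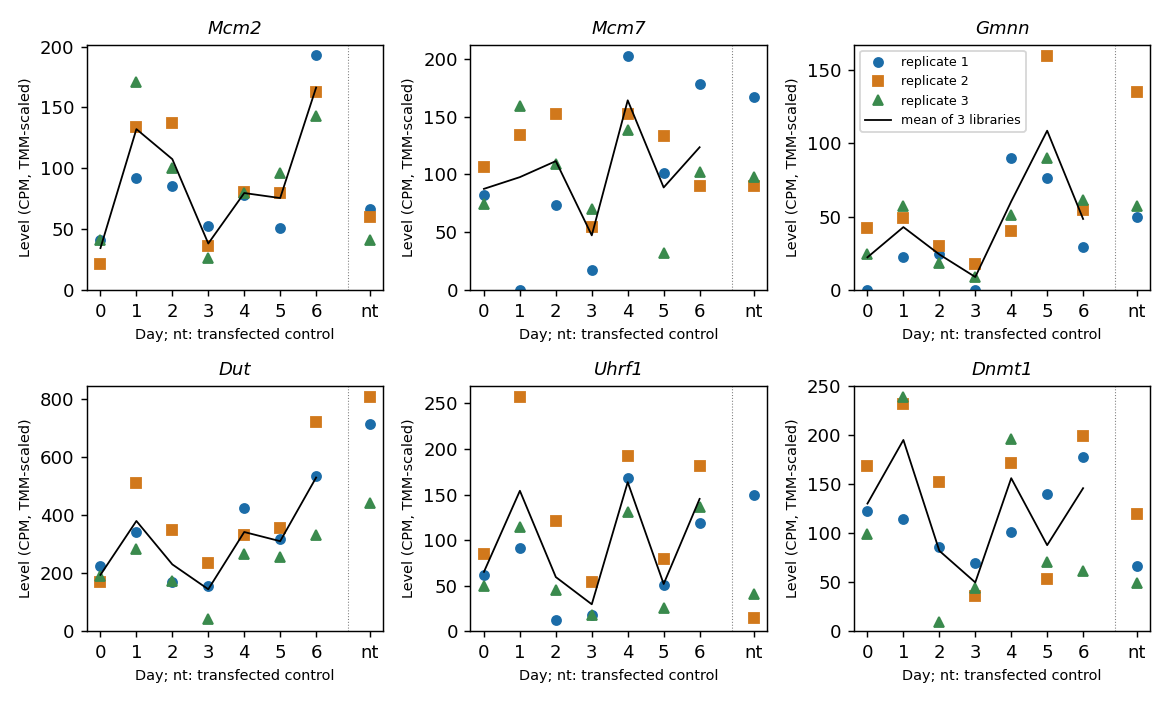
Level in CPM (TMM-scaled) of 6 genes against day, with nt at the right. Points are single libraries by replicate and lines join means of 3 libraries. In each panel the 3 Day04 points lie above the 3 Day03 points, and the mean of Gmnn is highest at day 5.

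Counted over comparisons, edgeR called 5 of the 13 testable genes higher from Day03 to Day04 (Mcm7, Gmnn, Dut, Uhrf1 and Dnmt1) and none lower, where 5.31% of tested genes were called higher and 6.64% lower. Under total counts the overall split of that step was 225 higher and 152 lower genes, and under RLE size factors 126 and 280, in place of 160 and 200. Against Day00, Mcm2 and Dut were called higher at Day01, Uhrf1 at Day04, Gmnn at Day05 and Mcm2 and Dut at Day06, and none was called lower. On those days 3.09%, 8.30%, 16.8% and 10.7% of tested genes were called higher and 6.80%, 10.4%, 15.0% and 11.5% lower. From Day01 to Day02, 2 genes were called lower, beside 1.39% of tested genes, from Day04 to Day05 1, beside 1.36%, and from Day05 to Day06 1 was called higher, beside 3.32%. No gene of the 13 was called by edgeR in Day02 against Day00, beside 11.6% of tested genes, in Day03 against Day00, beside 10.9%, in Day06 against Day01, beside 6.87%, or in Day03 against Day02, beside 2.82%. At an unadjusted p under 0.05 the counts were 1, 1, 1 and 2, and DESeq2 called none there either.

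Of the roles with sparser genes, polymerases and primase summed to 123, 42.3 and 91 CPM at Day00, 0, 54.2 and 52.8 CPM at Day03 and 123, 81 and 79.8 CPM at Day04. The genes for the CDC45 and GINS step went from 0, 36.1 and 17.6 CPM at Day03 to 44.9, 50.6 and 29 CPM at Day04, and FEN1 with LIG1 from 0, 18.1 and 35.2 to 67.3, 70.9 and 36.3 CPM. Cyclin E and the histone mRNA binder Slbp held 17.5, 72.3 and 61.6 CPM at Day03 and 112, 142 and 174 CPM at Day04. The Rpa genes of single-strand binding held 140, 90.3 and 44 CPM at Day03 and 123, 91.1 and 79.8 CPM at Day04. Day03 and Day04 overlapped for the Rpa genes and for the CDC45 and GINS step, and not for the other roles. None of these sums was tested.

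Genes outside the 39 gave the setting. Of 59 other replication and S phase genes, 14 could be tested, and 4 were higher and none lower at Day04 against Day03, beside 5.31% and 6.64% of tested genes. At Day06 against Day00, 3 of the 14 were higher beside 10.7% of tested genes, Nasp (a histone chaperone, log2 fold change 1.98 ± 0.53, adjusted p = 0.00241, edgeR), Top1 (a topoisomerase, 0.84 ± 0.32) and Nap1l1 (a histone chaperone, 0.52 ± 0.20). The 49 G2 and M phase genes were also lowest at Day03, between 2085 and 2349 CPM against 5921 to 6377 CPM at Day01 and 4673 to 4889 CPM at Day04. From Day03 to Day04, 12 of the 30 testable were higher and none lower, beside 5.31% and 6.64% of tested genes. The lists were not tested against each other. At Day06 against Day00, 3 of the 30 were higher and none lower, beside 10.7% and 11.5% of tested genes. These were Ube2c, Ccnb1 and Birc5, all mitotic, which were higher by 1.55 ± 0.44, 1.52 ± 0.52 and 1.45 ± 0.41 on the log2 scale. Over the 21 time course libraries the summed levels of the 39 genes and of the G2 and M phase genes had a Pearson r of 0.894, and over the 106 transfected libraries 0.345. With summed fibroblast markers r was -0.25 and -0.46, with the other replication genes 0.809 and 0.452, with the Cdk inhibitors and p53 targets -0.64 and -0.22, with mitochondrially encoded genes -0.48 and 0.031, and with housekeeping genes 0.22 and 0.203. These describe libraries that share pools and day groups. The 22 Cdk inhibitors and p53 targets ran the other way, with 4645 to 4987 CPM at Day03 and 2943 to 4208 CPM at Day00, and 2 of 9 testable were higher and none lower at Day03 against Day00, beside 5.11% of tested genes called higher.

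Many of these genes are E2F targets, as said above, and the promoters of the 39 were searched for E2F-type words. Any part of such words in the change between day 3 and day 4 was not tested. RefSeq promoters of GRCm38.p6, from 250 bases before to 50 bases after each start, were present for 31 of the 39 genes. The E2F-type words TTTCCCGC, TTTCGCGC, TTTGCCGC and TTTGGCGC were sought on both strands, with overlapping matches allowed. At least 1 occurred in 12 of the 31 promoters (38.7%), in 18 of 47 promoters of the other replication genes (38.3%), in 2 of 44 promoters of the G2 and M phase genes (4.55%) and in 704 of 27025 promoters in all (2.6%). The 12 were Mcm3, Mcm5, Mcm6, Mcm7, Cdc6, Cdt1, Rfc3, Pola1, Pold1, Lig1, Uhrf1 and Dnmt1. Sites before the RefSeq start are shown for genes described above, together with Mcm5. By the GENCODE positions used for the gene spans, the sites of Mcm7, Cdc6, Uhrf1 and Dnmt1 lie inside the gene. Sequences run 5′ to 3′ on the gene's strand with the matched words in capitals, which in Mcm5 and the first Mcm6 site are a pair of words overlapping on opposite strands:
Mcm5 (chr8:75109347-75109376, plus strand): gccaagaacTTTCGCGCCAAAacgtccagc
Mcm6 (chr1:128359795-128359824, minus strand): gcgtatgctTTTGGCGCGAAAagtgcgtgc
Mcm6 (chr1:128359734-128359763, minus strand): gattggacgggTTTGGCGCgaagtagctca
Mcm7 (chr5:138172030-138172059, minus strand): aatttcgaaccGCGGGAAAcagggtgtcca
Cdc6 (chr11:98908002-98908031, plus strand): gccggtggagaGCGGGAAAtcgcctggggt
Uhrf1 (chr17:56304117-56304146, plus strand): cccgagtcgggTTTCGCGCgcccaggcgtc
Dnmt1 (chr9:20952824-20952853, minus strand): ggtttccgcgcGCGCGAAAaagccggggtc
Of the 5 genes called at Day04 against Day03, Mcm7, Uhrf1 and Dnmt1 carry a word, as do Mcm6 and Pola1, which were tested and not called. For Gmnn and Dut no word was found, and a gene without a promoter sequence could not show one. A match is a string of letters and no binding was measured.

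Transfected control cells at day 6 (nt) had summed levels of 2764, 2767 and 2247 CPM, a ratio of 0.932 to untransfected Day06 cells with overlapping ranges. This log2 ratio of -0.10 depended on the scaling, at -0.24 with RLE size factors, -0.25 with a nuclear-encoded total and -0.40 with total counts. Single genes differed in both directions. Mcm2 held 66.6, 59.8 and 40.8 CPM in nt, all below Day06, and was lower by a log2 fold change of -1.58 ± 0.47 (adjusted p = 0.00692, edgeR). Rfc2 (chromosome 5, 134581366 to 134601805), a clamp loader subunit whose exons overlap Lat2 on the opposite strand, held 0, 29.9 and 16.3 CPM in nt and 89, 72.3 and 54.5 CPM at Day06, lower by -1.96 ± 0.77 (adjusted p = 0.0449). The nt value of Rfc2 rests on 4 counts, and Mock had a mean of 45.6 CPM (log2 fold change against nt 1.24 ± 0.87, adjusted p = 0.634, edgeR). Its time course values were 41.1, 0 and 49.7 CPM at Day00, 91.7, 97.7 and 68.3 CPM at Day01, 49, 91 and 54.7 CPM at Day02, 35, 36.1 and 26.4 CPM at Day03, 44.9, 50.6 and 50.8 CPM at Day04 and 50.7, 13.3 and 51.5 CPM at Day05. Uhrf1 held 150, 15 and 40.8 CPM in nt, so that replicate 1 overlapped Day06, and was lower by -1.24 ± 0.47 (adjusted p = 0.0398). These 3 of 13 calls stand beside 11.0% of tested genes called lower and 15.6% higher, and they were lost in 3 of 11, 4 of 8 and 5 of 10 alternatives. Dut was at 716, 808 and 441 CPM in nt, Pcna at 300, 284 and 351 CPM, Rrm1 at 117, 135 and 261 CPM, Gmnn at 50, 135 and 57.2 CPM, Mcm6 at 167, 165 and 89.9 CPM, Mcm7 at 167, 89.7 and 98 CPM, Rfc4 at 16.7, 135 and 65.4 CPM and Dnmt1 at 66.6, 120 and 49 CPM, none of them called. In the fit with at least 10 counts, Rpa3 was higher (adjusted p = 0.0309, edgeR) and Rpa1 lower (-2.56 ± 0.79, adjusted p = 0.0438), where 1.95% of genes were called higher and 1.01% lower. Rpa3 had no count in any Day06 library, and 0, 59.8 and 57.2 CPM in nt. The mitochondrial share was 22.8% to 26.3% in nt and 16.0% to 16.6% at Day06, and summed fibroblast markers were lower in every nt library than in any Day06 library. The part of either in these differences was not tested.

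All 33 siRNAs were compared with the same 3 nt libraries, so their fold changes share whatever is particular to those libraries. Mean summed levels ranged from 1992 CPM (siBard1) to 3005 CPM (siPou5f1), with a median of 2363 CPM beside 2593 CPM in nt and 2356 CPM in Mock. Mock libraries held 2374, 2163, 2738, 2383 and 2120 CPM, 2 of them below the lowest nt library. In 17 siRNAs every replicate was lower than the nt library of the same number, and in 3 every replicate was higher. With siBard1, which targets the partner of BRCA1, the 3 libraries held 2092, 2073 and 1812 CPM, all below the lowest nt library, and this was the 1 siRNA of 33 for which that held, with none wholly above. Its ratio to nt was 0.768, a log2 ratio of -0.38 that became -0.25 without Dut. Gene by gene, 2 of the 39 lay wholly above nt (Mcm2 and Rfc2) and 3 wholly below (Dut, Pcna and Slbp). Of all genes 5.24% lay wholly above and 4.16% below, and of those with at least as many counts as Pold1 7.77% and 6.09%.

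**Figure D4:**
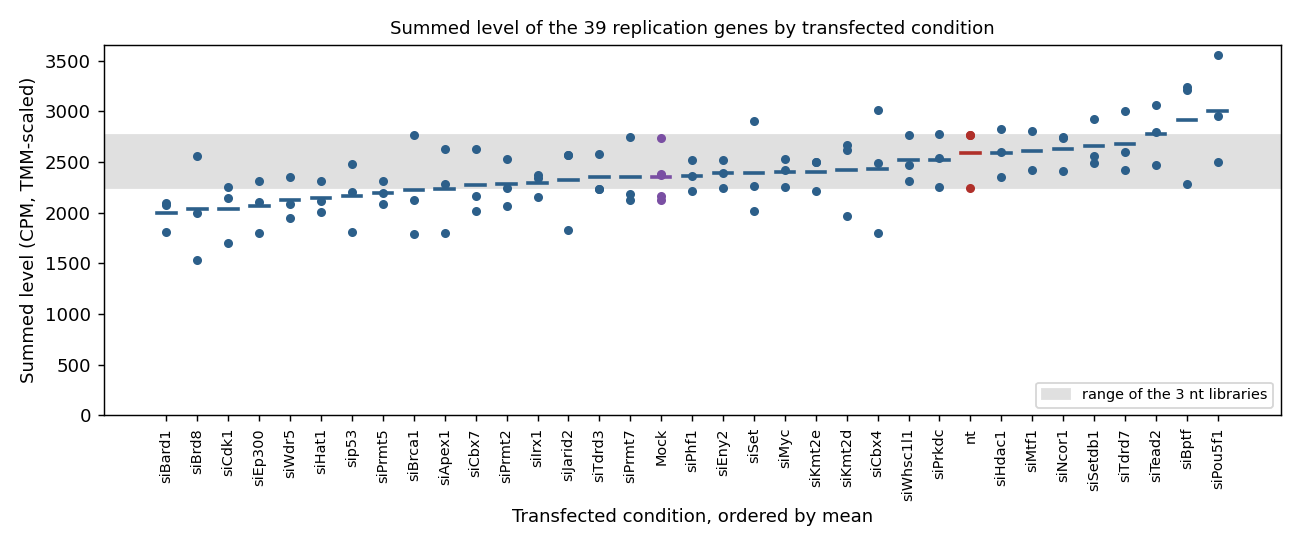
Summed level of the 39 genes in CPM (TMM-scaled) for each transfected condition, ordered by mean. Points are libraries, bars are means and the grey band is the range of the 3 nt libraries. Only the siBard1 points all lie below the band, and no siRNA has all points above it.

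With siWdr5, whose target is a core subunit of histone methyltransferase complexes, the libraries held 2351, 2090 and 1946 CPM (ratio 0.821), but the log2 ratio of -0.28 became -0.061 without Dut and turned to 0.031 as the mean of per-gene log2 ratios. With siBrca1 they held 2769, 2120 and 1790 CPM (0.859), overlapping nt. With siCdk1, against the kinase that drives entry into mitosis, they held 2141, 2258 and 1697 CPM (0.784), a log2 ratio of -0.35 that became -0.25 without Dut and -0.12 as the mean of per-gene log2 ratios, and none of the 13 was called in edgeR, beside 2.59% of tested genes (3 at an unadjusted p under 0.05, 1 called by DESeq2). With sip53 they held 1806, 2481 and 2202 CPM (0.834), and with siPou5f1 3557, 2956 and 2501 CPM (1.16).

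Dut accounted for most calls among the siRNAs. Counting pairs of 1 of the 13 genes and 1 of the 33 siRNAs, 9 were called, beside 2.57% of all pairs, and 7 of the 9 were Dut. Dut held 251, 299 and 266 CPM with siWdr5, all below nt, and was lower by a log2 fold change of -1.20 ± 0.24 (adjusted p = 3.26e-05, edgeR), where 27.2% of tested genes were called. With siBard1 it held 431, 411 and 243 CPM, also wholly below nt, and was lower by -0.87 ± 0.23 (adjusted p = 0.00556, 10.3% of tested genes called). With siBrca1 it held 496, 296 and 130 CPM, 1 of them above the lowest nt library, and was lower by -1.16 ± 0.26 (adjusted p = 0.00237, 4.22% called). It was also called lower with siHat1 (453, 257 and 260 CPM, -0.98 ± 0.22, adjusted p = 0.00607), siApex1 (360, 399 and 264 CPM, -0.91 ± 0.25, adjusted p = 0.0496), sip53 (399, 371 and 279 CPM, -0.87 ± 0.26, adjusted p = 0.0467) and siPhf1 (313, 432 and 315 CPM, -0.83 ± 0.24, adjusted p = 0.0369), where 0.398%, 0.697%, 1.96% and 1.92% of tested genes were called. The nt libraries themselves were high in Dut. Their mean of 655 CPM was above every siRNA mean but that of siMtf1 (669 CPM, 2 libraries), while the Mock libraries held 490, 240, 461, 496 and 403 CPM (log2 fold change against nt -0.61 ± 0.22, unadjusted p = 0.00619, adjusted p = 0.146, edgeR, with 1.56% of tested genes called). Against the mean of the nt and Mock conditions, weighted equally, the Dut calls of siWdr5 and siBrca1 were kept, and those of siBard1, siHat1, siApex1, sip53 and siPhf1 were lost. Over 12 alternatives the Dut call was kept in 11 for siWdr5 (adjusted p up to 0.0534, with limma), in 8 for siBrca1, 7 for siBard1, 6 for siHat1, 5 for siPhf1, 2 for siApex1 and 1 for sip53. The siBrca1 call was among those lost without replicate 2 or 3.

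**Figure D5:**
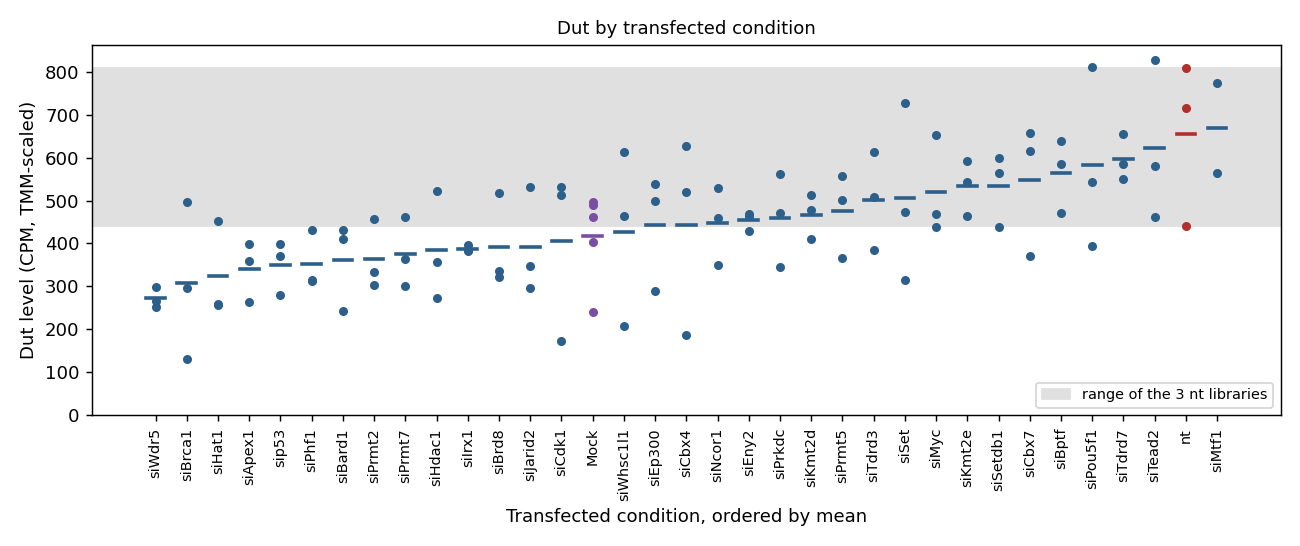
Level of Dut in CPM (TMM-scaled) for each transfected condition, ordered by mean. Points are libraries, bars are means and the grey band is the range of the 3 nt libraries, from 441 to 808 CPM. The siWdr5 libraries are the lowest by mean at 272 CPM, the 5 Mock libraries straddle the lower edge of the band, and nt lies near the right end.

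The other 2 of the 9 calls were Pcna and Rfc4. Pcna held 172, 142 and 228 CPM with siWdr5, all below nt, and was lower by -0.76 ± 0.31 (adjusted p = 0.0493, edgeR), a call kept in 1 of 12 alternatives. Rfc4 held 143, 314 and 240 CPM with siNcor1, all above nt, and was higher by 1.67 ± 0.44 (adjusted p = 0.00877, edgeR), beside 3.42% of tested genes called higher, kept in 8 of 11 alternatives and named after its values were seen. The fit with at least 10 counts also called Rpa3, a single-strand binding subunit, lower with siWdr5 (adjusted p = 0.0366, edgeR), where its 3 libraries had no count and where 1.63% of genes were called lower. Alongside, siWdr5 libraries had Nasp lower (-1.29 ± 0.36, adjusted p = 0.0035, edgeR) and Cdkn1a, the Cdk inhibitor p21, higher by 1.05 ± 0.23 (adjusted p = 0.000102). Of the 30 testable G2 and M phase genes, 4 were lower and 1 higher, beside 15.1% and 12.2% of tested genes. The summed fibroblast markers of siWdr5 libraries were at 7502 to 8628 CPM against 2614 to 3630 CPM in nt, with 9 of 14 testable markers higher beside 12.2% of tested genes, and the part of this difference in the level of Dut was not tested.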

How the data were processed

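CEL-Seq2 libraries, which count the 3′ ends of polyadenylated transcripts with unique molecular identifiers (UMIs), were made from bulk RNA. According to the study's methods, the authors mapped reads to mm10 with Bowtie2 and counted UMIs per gene with the CEL-Seq2 pipeline against GENCODE vM13. The deposited count table holds UMI counts per gene for 129 libraries, and a deposited log2 table holds values that the authors normalized, filtered to 10568 genes and freed of low-quality libraries. The 127 libraries in both tables were used. Conditions were read from column names and matched to 3 samples, 1 per replicate. For Mock replicate 3, with 2 count columns and 1 log2 column, the library was matched by its values (r = 0.925 against 0.0318). No column was left unmapped.

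Counts were tested with edgeR 4.0.16 in R 4.3.3 (TMM, filterByExpr, quasi-likelihood test with condition and replicate as terms, 3013 genes, 83 residual degrees of freedom) and adjusted by Benjamini-Hochberg within each comparison at 0.05. Replicate numbers mark shared sequencing pools. Deviations of same-numbered libraries had a median correlation of 0.0981, and of differently numbered ones -0.0685. Summed levels are CPM of the summed counts over the TMM-scaled library size, and every condition had 3 libraries except Mock (5) and siMtf1 (2). Alternatives were RLE or total-count scaling, a filter of 10 counts, no replicate block, all 129 libraries, only the libraries compared, nt with Mock as control, leaving out each replicate, DESeq2 1.42.0 and limma 3.58.1 on the log2 values. The day-to-day steps, the sum without Dut and the nuclear-encoded total were added after the sums had been seen. Tests were tried on simulated data. The members and lists were chosen with earlier results of these data known.

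Values per library are given for genes called over time or in nt against Day06 and for the 8 genes with the most counts. Genes called against nt are named for siWdr5, siBard1 and siBrca1, and otherwise where called with at least 2 siRNAs. Rfc4 with siNcor1 is an exception to this rule, named after its values were seen. Positions and overlaps come from GENCODE vM21, and a copy is a gene holding at least 25% of the 31-base words in the last 400 bases of a member's transcripts. UMI counting errors cover counting only.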

Additional observations from a re-analysis of the deposited data

How the results depend on the processing

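With 50 to 397 counts of the 39 genes per library, single genes were tested near the limit of the depth: genes outside the 13 did not reach the main filter, and calls on those 13 moved with most choices. The Day03 trough and the return at Day04 kept their direction under every alternative run. The calls of Mcm2 and Dut at Day06, Gmnn at Day05 and Uhrf1 at Day04 against Day03 were kept under every alternative that tested them. Fitting only the libraries compared did not test Mcm2 at Day06 or Gmnn at Day05, which missed the count filter there. Causes of the other changes were not tested.

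The counts below are genes called, after the main count. Without the replicate block they became 1 (from 2) at Day01 against Day00, 0 (1) at Day04 against Day00, 1 (3) for nt against Day06, 0 (2) at Day02 against Day01, 3 (5) at Day04 against Day03, 0 (1) at Day05 against Day04, 0 (1) at Day06 against Day05, 1 (2) for siWdr5, 0 (1) each for siBard1, siBrca1 and sip53, and 2 (9) over all siRNA pairs. The block was the main design because the numbers mark shared pools. With limma on the deposited log2 values 3 were left at Day04 against Day03 and 0 at Day04 against Day00, Day02 against Day01, Day05 against Day04, Day06 against Day05, in nt against Day06, for siWdr5, siBard1, siBrca1 and sip53 and over all pairs. With the filter of 10 counts, which tests more genes, the count was 4 over all pairs and 0 at Day01 and Day04 against Day00, Day02 against Day01, Day05 against Day04, Day06 against Day05 and for sip53. DESeq2 gave 1 at Day01 against Day00, 0 at Day04 against Day00, 2 at Day04 against Day03, 0 at Day05 against Day04, 1 for siWdr5, and 1 where the main fit had 0 for siCdk1 and siPou5f1. RLE gave 0 at Day04 against Day00, 2 at Day06 against Day05, 1 for siWdr5 and 0 for sip53. Total counts gave 5 at Day01 against Day00, 2 at Day06 against Day05, 1 for siWdr5 and 0 for sip53. All 129 libraries gave 1 for siWdr5 and 0 for sip53. Only the libraries compared gave 0 at Day02 against Day01, 2 at Day04 and at Day05 against Day00, 1 at Day06 against Day00, 1 for nt against Day06, 1 for siCdk1, 1 for siWdr5 and 0 for sip53. With nt and Mock as the control the count was 0 for siBard1 and sip53 and 1 for siPou5f1.

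Leaving out 1 replicate in turn gave 0 to 1 calls at Day01 against Day00, 0 to 0 at Day04 against Day00, 1 to 2 at Day05 against Day00, 0 to 3 for nt against Day06, 0 to 1 for Mock against nt, 1 to 1 for siWdr5, 0 to 1 for siBard1 and for siBrca1, 0 to 0 for sip53, 0 to 1 at Day02 against Day01, 2 to 5 at Day04 against Day03, 0 to 0 at Day05 against Day04, 0 to 1 at Day06 against Day05 and 2 to 5 over all pairs. Without replicate 3, Dut at Day04 against Day03 and Mcm2 in nt against Day06 were among the lost calls.

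As log2 ratios of sums, RLE moved Day01 against Day00 to 0.58 (from 0.67), Day04 against Day00 to 0.41 (0.60), Day05 against Day00 to 0.03 (0.26), nt against Day06 to -0.24 (-0.10), siBard1 to -0.32 (-0.38), siCdk1 to -0.29 (-0.35) and siWdr5 to -0.11 (-0.28). Total counts gave 0.87 at Day01 against Day00, -0.84 at Day03 against Day00, 0.53 at Day06 against Day05 (from 0.40), -0.40 for nt against Day06 and -0.32 for siBard1. A nuclear-encoded total gave 0.82 at Day01 against Day00 and -0.25 for nt against Day06. Without Dut the values were 0.00 for Mock against nt (from -0.14), -0.22 for nt against Day06, -0.25 for siBard1, -0.25 for siCdk1 and -0.061 for siWdr5. The mean of per-gene log2 ratios was 0.82 at Day01 against Day00, 0.81 at Day04 against Day00, 1.55 at Day04 against Day03 (from 1.30), 0.51 at Day05 against Day00, 0.10 at Day06 against Day05, -0.12 for siCdk1 and 0.031 for siWdr5, which reversed. Relative to TMM, RLE shifted the median over all genes, in log2 fold change, by -0.15 to -0.21 at Day02, Day04, Day05 and Day06 against Day00 and by -0.13 at Day04 against Day03, and total counts shifted it by 0.23 at Day01 against Day00, -0.15 at Day03 against Day00 and -0.36 in nt against Day06.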
